A study of Homo sapiens with 6 samples.

Results

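The spliceosome removes introns from pre-mRNA. It is built from small nuclear ribonucleoproteins (snRNPs), each a small nuclear RNA bound to a ring of Sm or LSm proteins and to proteins of its own, and it is remodelled by RNA helicases. The U1 and U2 snRNPs bind the start of the intron and its branch site, the U4/U6.U5 tri-snRNP joins next, and the Prp19 complex (NTC) enters when the spliceosome is activated. The genes described here are 56 core spliceosome genes: the proteins of the U1, U2, U5 and U4/U6 snRNPs, U2AF, the Sm and LSm rings, 2 Prp19-related proteins, and the splicing helicases and second-step factors. They are a list of named genes with no threshold on the values, and the NTC core subunits were left out. All 56 were found among the 58735 genes of the deposited files, and all 56 passed the filter of a mean of at least 1 FPKM (fragments per kilobase of exon, scaled to the size of the library) that left 13718 genes for testing.

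The cells were SK-N-AS, an established human neuroblastoma line. They were transfected with a siRNA that targets Prp19 (siPrp19) or a negative control siRNA (NC) and, per the labels, harvested after 72 h. The study's methods state a shorter time. The study selected a single siRNA sequence for its experiments, so effects of the sequence and of the loss of Prp19 cannot be told apart. There were 6 libraries, 3 per group, which the methods call biological replicates.

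The labels and the deposited columns disagreed about the group of 2 libraries. The column NCb belongs to the library labelled siPrp19 replicate 1, and the column siPrp19b to the library labelled NC replicate 3. The other columns carry the group of their label: NCa is NC replicate 1, NCc is NC replicate 2, siPrp19a is siPrp19 replicate 2 and siPrp19c is siPrp19 replicate 3. Of these, NCc and siPrp19a still carry the name given to another sample of the same group. Where label and column name are said to agree, they agree on the group. *PRPF19*, which encodes Prp19 and is the target of the siRNA, was at 83.0, 83.1 and 93.0 FPKM in NCa, NCb and NCc. It was at 19.6, 19.1 and 18.5 FPKM in siPrp19a, siPrp19b and siPrp19c. The target thus followed the column name in all 6 libraries and went against the label in NCb and siPrp19b. Libraries are therefore called by their column name, and the counts over the 56 genes and the genes that passed are given in 3 ways: by column name, in the 4 libraries whose label and column name agree (NCa and NCc against siPrp19a and siPrp19c), and as labelled. These 3 comparisons share libraries and are not independent of each other. Other values are by column name where nothing else is said.

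The libraries held between 14887132 and 19977811 reads, recovered from the FPKM values. The libraries were not equally far apart. Over all tested genes, the chi-square per degree of freedom between the reads of 2 libraries was 1.75 for NCa and NCb and 2.85 for siPrp19b and siPrp19c, and from 21.5 to 56.6 for the 13 other pairs. A value of about 1 is sampling noise, so no pair was merged, but NCa with NCb and siPrp19b with siPrp19c were much closer to each other than to NCc and siPrp19a. The 4 libraries whose label and column name agree hold 1 library of each close pair. Mitochondrial genes took 8.29% of the reads in siPrp19a and from 5.15% to 5.49% in the other 5 libraries. Of the neuroblastoma markers, HAND2 was at 117 to 169.9 FPKM and VIM at 99.4 to 162 FPKM, whereas TH was at 0.662 FPKM or less. Of the 4 epithelial markers, EPCAM, CDH1 and KRT19 were at 0.176 FPKM or less in every library and KRT8 at 7.0 to 9.1 FPKM. Of the 4 blood and endothelial markers, PTPRC was at 16.9 to 30.7 FPKM, CD68 and PECAM1 were at 0.982 FPKM or less and HBB was listed at 0 in all 6 libraries.

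The Sm genes had the highest median FPKM of the classes. FPKM is scaled here to the length of all annotated exons of a gene together. That length can exceed any single transcript, as for *SNRPF* (3043 bases against 1389 in its longest transcript). Comparisons of level between genes are therefore approximate. The median exon length was 1795 bases for the Sm ring and 5946 bases for the helicases and second-step factors. The mean over the 6 libraries was highest for *SNRPD2*, a subunit of the Sm ring, at 157 FPKM, and next for *SNRPB*, another Sm subunit, at 146 FPKM. *SNRPC* of the U1 snRNP followed at 94.8 FPKM and *SF3B6* of the U2 snRNP at 83.8 FPKM. The median of the class means was 60.2 FPKM for the Sm ring and 49.4 FPKM for the 3 U1 proteins. It was 31.7 FPKM for the 12 U2 proteins, 22.1 FPKM for the 7 U5 proteins and 20.3 FPKM for the 9 U4/U6 and tri-snRNP proteins. It was 14.6 FPKM for the LSm ring and 14.5 FPKM for the helicases and second-step factors. The Sm ring itself is made of equal parts, but its transcripts ranged from 22.7 FPKM (*SNRPF*) to 157 FPKM, and those of the LSm ring from 6.29 FPKM (*LSM3*) to 49.0 FPKM (*LSM4*). The part of the exon length used in these ranges was not tested.

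**Figure D1:**
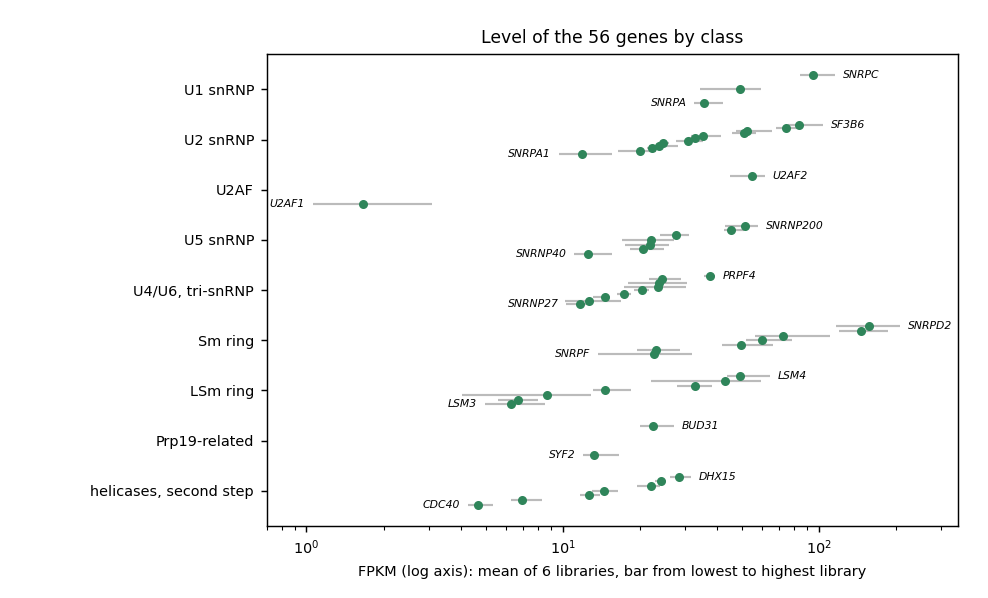
Mean FPKM of each of the 56 genes over the 6 libraries (points, logarithmic axis), by class, with a bar from the lowest to the highest library. The lowest and highest gene of each class are named. Means run from 1.67 FPKM (U2AF1) to 157 FPKM (SNRPD2).

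The gene listed with the lowest mean was *U2AF1*, the small subunit of the factor that binds the end of the intron, at 1.67 FPKM. This value is uncertain: 94.3% of the 50-base words of its transcripts also occur in U2AF1L5, a near-identical copy, so reads could be split between them or dropped. The next lowest was *CDC40*, a second-step factor, at 4.68 FPKM. For *PRPF18*, another second-step factor, 37.1% of the 50-base words occur in the overlapping gene AL157392.5. The share was 15.7% for *SNRPB*, 11.7% for *SNRPE*, 11.7% for *SNRPA1* and 10.7% for *SNRPD3*, and under 10% for the other 50 genes. The exons of 26 of the 56 genes overlap those of another annotated gene, in 6 genes over more than 20% of their length. The strandedness of the counting is not given in the sources used here, so reads of genes on opposite strands cannot be told apart.

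Few of the 56 genes differed between the groups. By column name, 2 of the 56 genes (3.57%) had an adjusted p-value under 0.05, with lower levels in siPrp19 in each case. Over all 13718 tested genes, 7.94% passed, 5.37% lower and 2.57% higher. The share of the spliceosome genes that passed was therefore not above that of all genes. The 2 genes were *EFTUD2* of the U5 snRNP and *SNRPA1* of the U2 snRNP. In RNA from whole cultures, fewer cells that express a gene and less RNA per cell cannot be told apart. At an unadjusted p-value under 0.05 there were 9 of the 56 genes and 3240 of all genes.

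In the 4 libraries whose label and column name agree, 0 of the 56 genes passed, against 0.0146% of all genes (2 of 13718). There, 3 of the 56 and 1685 of all genes had an unadjusted p-value under 0.05. In the same 4 libraries, voom, a limma model for the recovered reads, called 266 genes. As labelled, 0 of the 56 genes and 0% of all genes passed, and 0 of the 56 and 191 of all genes had an unadjusted p-value under 0.05. With voom as labelled, 0 genes passed.

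*EFTUD2* (ENSG00000108883) encodes the GTPase of the U5 snRNP, which takes part in the remodelling of the spliceosome. The gene occupies bases 44849943 to 44899662 of chromosome 17 (GRCh38, as for all coordinates here) and is read from the minus strand. It was at 25.4, 26.0 and 25.5 FPKM in NCa, NCb and NCc and at 19.5, 17.5 and 18.2 FPKM in siPrp19a, siPrp19b and siPrp19c. The groups did not overlap, and the lowest NC library was well above the highest siPrp19 library. The mean was 25.6 ± 0.322 FPKM (SD, n = 3) in the NC columns and 18.4 ± 1.03 FPKM (SD, n = 3) in the siPrp19 columns, which was 28.2% lower. The difference was -0.46 ± 0.067 on the log2 scale (SE, adjusted p-value 0.0111). Among the 4 libraries that agree it was -0.41 ± 0.12 (SE, adjusted p-value 0.271), and as labelled -0.09 (adjusted p-value 1.00). Part of its exons, 5.19% of the length, overlap genes on the opposite strand.

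*SNRPA1* (ENSG00000131876) encodes U2 A′, a protein of the U2 snRNP that binds its RNA together with the product of *SNRPB2*. It occupies bases 101281510 to 101295282 of chromosome 15, also on the minus strand. It was at 13.2, 12.3 and 15.6 FPKM in NCa, NCb and NCc and at 10.2, 9.64 and 10.3 FPKM in siPrp19a, siPrp19b and siPrp19c. All 3 siPrp19 columns were below all 3 NC columns, and NCc was the highest. The mean fell from 13.7 ± 1.70 to 10.0 ± 0.344 FPKM (SD, n = 3 each), or by 26.7%. The difference was -0.41 ± 0.093 on the log2 scale (SE, adjusted p-value 0.0453). Among the 4 libraries that agree it was -0.45 ± 0.13 (SE, adjusted p-value 0.271), and as labelled -0.19 (adjusted p-value 1.00). Its partner *SNRPB2* was at 33.3, 35.5 and 41.5 FPKM in the NC columns and at 37.1, 32.3 and 31.7 FPKM in the siPrp19 columns, and these overlapped.

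Both calls were lost without single libraries of the close pairs, although the differences stayed about as large. Without NCa, NCb, siPrp19b or siPrp19c, each in turn, 0 of the 56 genes passed, and the adjusted p-value of *EFTUD2* was between 0.0594 and 0.0659. The log2 fold change then stayed between -0.46 and -0.42 for *EFTUD2* and between -0.47 and -0.38 for *SNRPA1*. Without NCc both genes passed, and without siPrp19a *EFTUD2* alone passed. *SNRPA1* also missed the threshold with no filter on low values (adjusted p-value 0.112), with no mean-variance trend (0.0582), with quantile normalization (0.0613) and with voom (0.0506), while *EFTUD2* passed under these 4 alternatives.

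The promoters of these 2 genes, the members that passed, are printed here from RefSeq (GRCh38.p14), from 250 bases before to 50 bases after an annotated start, 5′ to 3′ on the minus strand. *EFTUD2* has 2 overlapping windows in the table, and the one at chr17:44899396-44899695 is shown. The window of *SNRPA1* is chr15:101295199-101295498. Capitals mark the letters of 5 motifs searched on both strands: the CCAAT box (CCAAT), the SP1 core (GGGCGG), the ETS core (CCGGAA), the TATA box (TATAAA) and the YY1 core (AAGATGGC).
EFTUD2: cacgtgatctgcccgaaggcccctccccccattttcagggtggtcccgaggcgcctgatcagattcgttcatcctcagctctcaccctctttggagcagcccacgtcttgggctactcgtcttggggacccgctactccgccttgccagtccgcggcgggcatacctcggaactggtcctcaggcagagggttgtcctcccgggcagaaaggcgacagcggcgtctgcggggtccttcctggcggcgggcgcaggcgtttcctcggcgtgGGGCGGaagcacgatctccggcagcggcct
SNRPA1: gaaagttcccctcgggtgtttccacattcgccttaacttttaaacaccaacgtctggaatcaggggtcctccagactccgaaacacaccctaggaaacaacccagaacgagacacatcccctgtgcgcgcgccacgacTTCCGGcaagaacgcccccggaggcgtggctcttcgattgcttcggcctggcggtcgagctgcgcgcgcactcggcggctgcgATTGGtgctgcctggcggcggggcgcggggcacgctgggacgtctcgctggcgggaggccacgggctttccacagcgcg

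The *EFTUD2* window holds 1 SP1 core and none of the other motifs. The *SNRPA1* window holds 1 CCAAT box and 1 ETS core, both on the opposite strand, and no SP1 core, so the 2 windows share none of the 5 motifs. Their GC content was 67% and 65%. Of the 56 genes, 49 matched the table, with 60 windows. The SP1 core stood in 65% of these 60 windows and in 44.95% of all 35116 windows in the table, and the ETS core in 60% against 17.2%. The CCAAT box stood in 28.3% against 34.6%, the TATA box in 3.33% against 11.5% and the YY1 core in 8.33% against 2.89%. These are counts of letters and not of bound sites, and windows of the same gene can overlap.

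**Figure D2:**
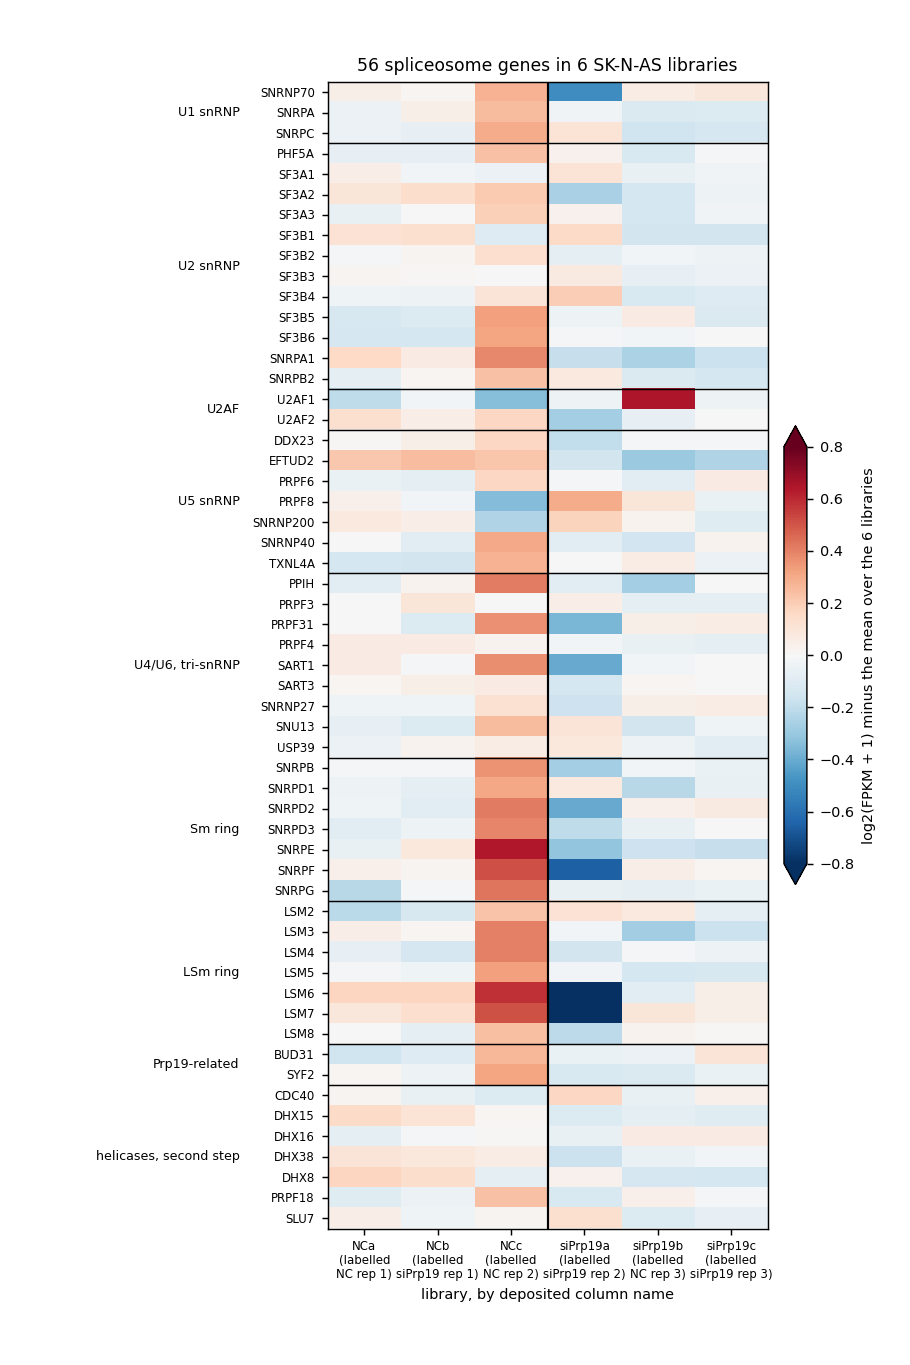
The 56 genes (rows, by class) in the 6 libraries (columns, by column name with the label below). Colour gives log2(FPKM + 1) minus the mean of the gene over the 6 libraries. NCc is red and siPrp19a blue for much of the Sm and LSm rings, and EFTUD2 and SNRPA1 are red in all 3 NC columns and blue in all 3 siPrp19 columns.

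The other 54 genes did not pass, and most differences were small. A rule on p-value, size of change and level in these same data named *PRPF19* and 13 other genes in all. Any further gene below was named after its values were seen. By column name, 47 of the 56 genes had a lower and 9 a higher mean of log2(FPKM + 1) in siPrp19. All counts of lower and higher means refer to that scale, on which *TXNL4A* and *BUD31* were higher although their mean FPKM was slightly lower. The median log2 fold change of the 56 genes was -0.12, against -0.02 for all tested genes, and the range was from -0.62 (*LSM6*) to 0.38 (*U2AF1*). How far the list lay below 0 depended on the scaling and on NCc. Under quantile normalization 29 genes were lower and 27 higher, with a median of -0.01 against 0.01 for all genes, and with voom 35 were lower and 21 higher, with a median of -0.05 against 0.05. The median of all genes moved as well. The scale of the FPKM values was not the total of recovered reads and differed by group. That total was 1.012, 1.009 and 1.038 times the scale in NCa, NCb and NCc. It was 0.989, 0.961 and 0.951 times the scale in siPrp19a, siPrp19b and siPrp19c. Fold changes from FPKM are therefore lower than those from reads scaled to these totals. Counts of lower and higher genes by FPKM and under other scalings, also by class below, include such shifts. Without NCc the median was -0.03, with 39 lower and 17 higher. The groups did not overlap in 15 of the 56 genes, all lower in siPrp19 (26.8%), against 18.1% of all genes, and 0 of the 56 were higher without overlap, against 13.2% of all genes.

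The 95% intervals give a range for the changes on the FPKM scale. They treat the libraries of the close pairs as independent, so they may be too narrow. The interval lay within a 1.5-fold change either way for 45 of the 56 genes and within a 2-fold change for 54. Among the 4 libraries that agree, 32 lay within 1.5-fold and 52 within 2-fold, and the median was -0.14, with 48 lower and 8 higher. There, 19 of the 56 genes were lower without overlap (33.9%, against 24.8% of all genes) and 2 higher, against 19.2% of all genes. As labelled, the median was -0.07, with 43 lower and 13 higher (7 of the 12 U2 proteins and 7 of the 9 U4/U6 and tri-snRNP genes were lower), and 1 gene was lower (against 2.51% of all genes) and 0 higher (against 2.11%) without overlap. The summed level of the 56 genes was 2029 ± 235 FPKM (SD, n = 3) in the NC columns and 1826 ± 44.9 FPKM (SD, n = 3) in the siPrp19 columns. Per library, it was 1891, 1896 and 2300.4 FPKM in NCa, NCb and NCc and 1775, 1847 and 1858 FPKM in siPrp19a, siPrp19b and siPrp19c. NCc was thus above the other 5, which lay close together.

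**Figure D3:**
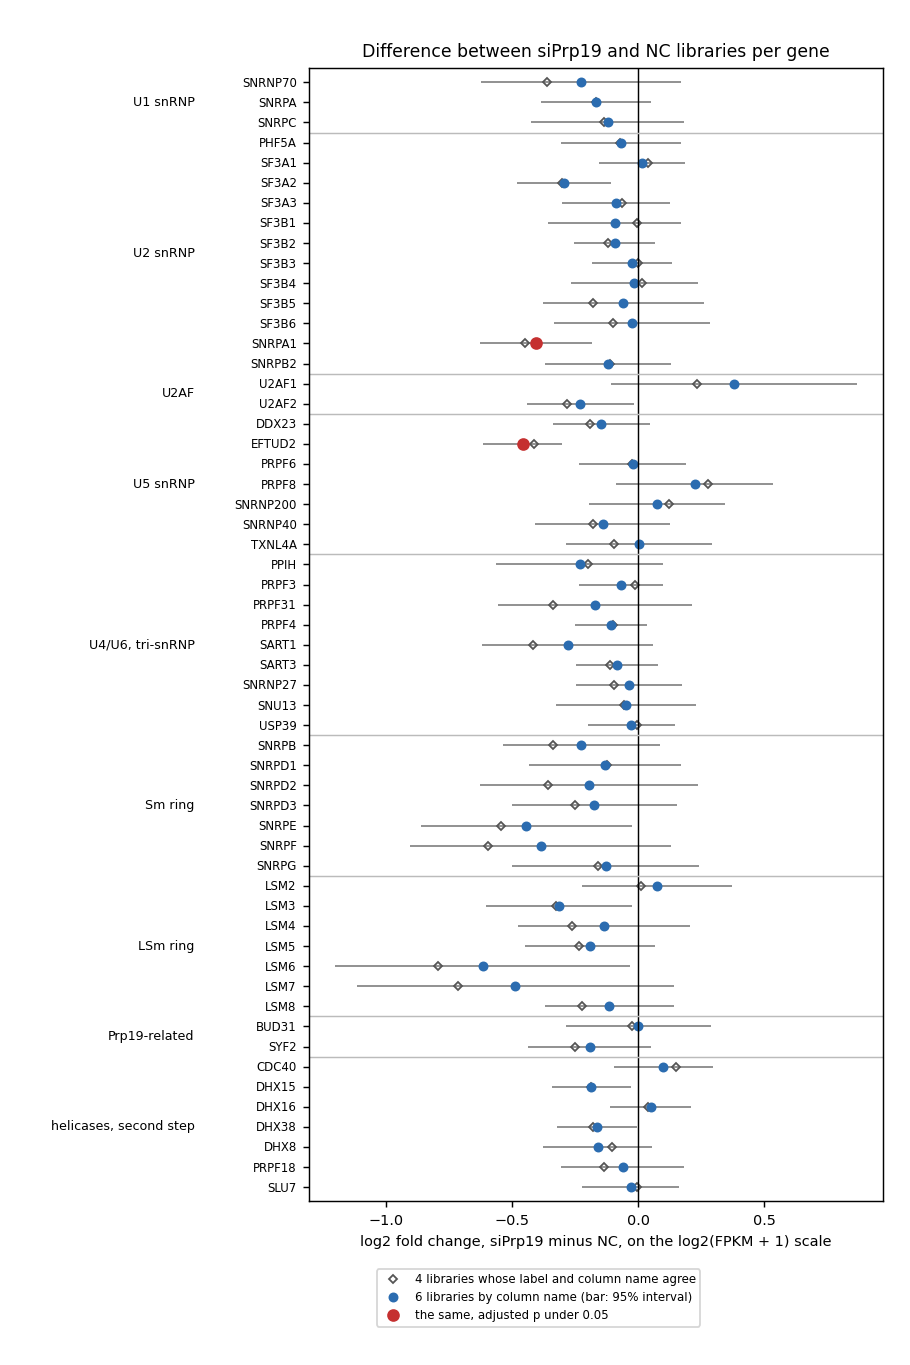
Log2 fold change (siPrp19 minus NC) of the 56 genes, by class. Filled circles with 95% intervals are the 6 libraries by column name, and open diamonds the 4 libraries whose label and column name agree. Red marks EFTUD2 and SNRPA1, which passed an adjusted p-value of 0.05.

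Of the 3 U1 proteins, which bind the start of the intron, 0 passed. All 3 had lower means in siPrp19, with log2 fold changes from -0.23 to -0.12, and 2 of the 3 did under quantile normalization. The largest was that of *SNRNP70* (ENSG00000104852), the U1-70K protein that binds the U1 RNA. It was at 50.5, 49.4 and 59.3 FPKM in the NC columns and at 34.3, 50.8 and 52.0 FPKM in siPrp19a, siPrp19b and siPrp19c. The low value was that of siPrp19a, and the other 2 siPrp19 columns lay among the NC columns. The difference was -0.23 ± 0.17 on the log2 scale (SE, adjusted p-value 0.464). Without both NCc and siPrp19a it was 0.04, so its direction turned.

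Of the 12 U2 proteins, 1 passed (*SNRPA1*), 11 had lower means and the median log2 fold change was -0.08, against -0.02 for all genes. Under quantile normalization 2 of the 12 were lower, with a median of 0.03 against 0.01 for all genes. With voom 6 of the 12 were lower, with a median of -0.006 against 0.05 for all genes. They include the SF3A and SF3B complexes, which hold the branch site. *SF3A2*, a subunit of SF3A, came next to *SNRPA1*. It was at 21.3, 22.0 and 23.2 FPKM in the NC columns and at 16.4, 18 and 19.3 FPKM in the siPrp19 columns, without overlap. On the log2 scale it differed by -0.29 ± 0.079 (SE, adjusted p-value 0.0708), and 12.7% of its exon length overlaps PLEKHJ1 on the opposite strand. The other SF3A subunits and the 7 SF3B proteins, *PHF5A* among them, had log2 fold changes from -0.09 to 0.01. *SF3B1*, the largest SF3B subunit, was at 55.2, 55.8 and 47.3 FPKM in the NC columns and at 56.7, 45.9 and 45.9 FPKM in the siPrp19 columns. NCc was lower than the other NC columns for this gene, and siPrp19a higher than the other siPrp19 columns.

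The U2AF subunits recognize the end of the intron. *U2AF1* was listed at 1.26, 1.56 and 1.06 FPKM in the NC columns and at 1.53, 3.08 and 1.53 FPKM in siPrp19a, siPrp19b and siPrp19c, from 202 to 565 reads. The high value was that of siPrp19b, and the groups overlapped. The difference was 0.38 ± 0.21 on the log2 scale (SE, adjusted p-value 0.323), and as labelled it was -0.07. In the 4 libraries the siPrp19 columns were above the NC columns without overlap (0.23 ± 0.16 SE, adjusted p-value 0.615). *U2AF2*, the large subunit, was at 59.9, 56.6 and 61.3 FPKM in the NC columns and at 45.1, 52.0 and 54.5 FPKM in the siPrp19 columns, without overlap. On the log2 scale it differed by -0.23 ± 0.090 (SE, adjusted p-value 0.181).

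Of the 7 U5 proteins, 1 passed (*EFTUD2*), 4 had lower and 3 higher means of log2(FPKM + 1), and the median log2 fold change was -0.02. Under quantile normalization and with voom 3 were lower and 4 higher, with medians of 0.095 and 0.053, against 0.012 and 0.053 for all genes. *PRPF8*, the large protein at the centre of the spliceosome, was at 22.5, 21.5 and 17.0 FPKM in the NC columns and at 27.1, 23.5 and 21.0 FPKM in the siPrp19 columns. *SNRNP200*, the helicase that unwinds U4 from U6, was at 53.9, 52.9 and 43.1 FPKM and at 57.9, 52.0 and 47.7 FPKM. Both overlapped between the groups, and *PRPF8* (log2 fold change 0.22, 95% interval -0.09 to 0.54) and *SNRNP200* (0.07, 95% interval -0.20 to 0.34) had intervals that reached below 0. The proteins of *PRPF8*, *SNRNP200* and *EFTUD2* form the core of the U5 snRNP, and of the 3 transcripts that of *EFTUD2* alone passed, although the differences between the genes were not tested.

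All 9 U4/U6 and tri-snRNP genes had lower means in siPrp19, from -0.28 to -0.03, and 0 passed. Under quantile normalization 4 of the 9 were lower, with a median of 0.004 against 0.01 for all genes. With voom 5 of the 9 were lower, with a median of -0.01 against 0.05 for all genes. *SART1* (ENSG00000175467), a tri-snRNP protein, had the largest difference. It was at 24.3, 22.9 and 30.2 FPKM in the NC columns and at 17.3, 22.8 and 23.2 FPKM in siPrp19a, siPrp19b and siPrp19c. NCc was the highest and siPrp19a the lowest, and the other 4 libraries lay between 22.8 and 24.3 FPKM. The difference was -0.28 ± 0.14 on the log2 scale (SE, adjusted p-value 0.295). *PRPF4*, a U4/U6 protein, was at 39.3, 39.2 and 38.3 FPKM in the NC columns and at 36.8, 35.9 and 35.5 FPKM in the siPrp19 columns, a small difference (-0.11 on the log2 scale) without overlap and with an adjusted p-value of 0.341.

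All 7 Sm genes had lower means in siPrp19, with a median of -0.20 and a range from -0.45 to -0.13, and 0 passed. With voom all 7 were lower, with a median of -0.12 against 0.05 for all genes. All 7 were also lower with the GC and length correction, with a median of -0.18 against 0.01. Under quantile normalization 6 of the 7 were lower, with a median of -0.03, and without both NCc and siPrp19a 3 of the 7 were lower, with a median of 0.0011. *SNRPE* (ENSG00000182004) had the largest difference. It was at 67.7, 75.0 and 111 FPKM in NCa, NCb and NCc and at 56.5, 63.0 and 61.9 FPKM in siPrp19a, siPrp19b and siPrp19c. NCc was far above the other NC columns, and the groups did not overlap. The difference was -0.45 ± 0.18 on the log2 scale (SE, adjusted p-value 0.186), and it was -0.24 without NCc. *SNRPD2*, with the highest mean FPKM of the 56 genes, was at 151, 145 and 207 FPKM in the NC columns and at 117, 159 and 163 FPKM in the siPrp19 columns. NCc was the highest and siPrp19a the lowest library, and siPrp19b and siPrp19c were above NCa and NCb. On the log2 scale it differed by -0.20 ± 0.18 (SE, adjusted p-value 0.574) and turned to 0.12 without both NCc and siPrp19a.

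The LSm ring binds the end of the U6 RNA. Of its 7 genes 6 had lower means, also under quantile normalization and with voom, with a median of -0.19, and 0 passed. Without both NCc and siPrp19a 4 of the 7 were lower, with a median of -0.04. *LSM6* (ENSG00000164167) had the largest difference of the 56 genes. It was at 9.46, 9.42 and 12.9 FPKM in NCa, NCb and NCc and at 4.04, 7.69 and 8.56 FPKM in siPrp19a, siPrp19b and siPrp19c, from 255 to 884 reads. The groups did not overlap, but siPrp19a was far below the other siPrp19 columns. The difference was -0.62 ± 0.25 on the log2 scale (SE, adjusted p-value 0.189), and without siPrp19a it was -0.33. *LSM3* was at 6.47, 6.29 and 8.53 FPKM in the NC columns and at 6.09, 4.96 and 5.39 FPKM in the siPrp19 columns, without overlap and with an adjusted p-value of 0.180. *LSM7* had a similar low value in siPrp19a: it was at 43.9, 45.3 and 59.3 FPKM in the NC columns and at 22.0, 44.2 and 42.6 FPKM in the siPrp19 columns.

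*SYF2* and *BUD31*, which bind near the Prp19 complex in the activated spliceosome, did not pass. *SYF2* (ENSG00000117614) was at 13.3, 12.7 and 16.6 FPKM in the NC columns and at 12, 12 and 12.6 FPKM in the siPrp19 columns, without overlap. On the log2 scale it differed by -0.19 ± 0.10 (SE, adjusted p-value 0.313) and was -0.08 without NCc. *BUD31* was at 19.95, 20.8 and 27.1 FPKM and at 21.6, 21.7 and 24.1 FPKM, with a log2 fold change of 0.00026, 95% interval -0.29 to 0.29. Of its exon length, 46.7% overlaps PDAP1 and PTCD1 on the opposite strand, so its values may include their reads.

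Of the 7 helicases and second-step factors, 5 had lower and 2 higher means, with a median of -0.06, and 0 passed. With voom, with the GC and length correction and as labelled, 3 were lower and 4 higher, with medians of 0.0029, 0.02 and 0.0010. The medians of all genes there were 0.05, 0.01 and -0.01. *DHX15* (ENSG00000109606), the helicase that takes spliceosomes apart, had the largest difference. It was at 31.6, 30.6 and 28.5 FPKM in the NC columns and at 26.2, 26.8 and 26.3 FPKM in the siPrp19 columns, and the groups did not overlap. The difference was -0.19 ± 0.066 on the log2 scale (SE, adjusted p-value 0.146), and it was -0.07 once the libraries were corrected for the GC content and length of transcripts. *DHX38*, the helicase that acts before the second step, was at 23.9, 23.5 and 23.2 FPKM in the NC columns and at 19.6, 21.3 and 21.8 FPKM in the siPrp19 columns, without overlap and with an adjusted p-value of 0.198. *DHX16*, which acts before the first step, was at 22.9, 24.0 and 24.3 FPKM and at 23.2, 25.3 and 25.3 FPKM, with a log2 fold change of 0.05, 95% interval -0.11 to 0.21. All 7 genes of this class had intervals within a 1.5-fold change either way.

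**Figure D4:**
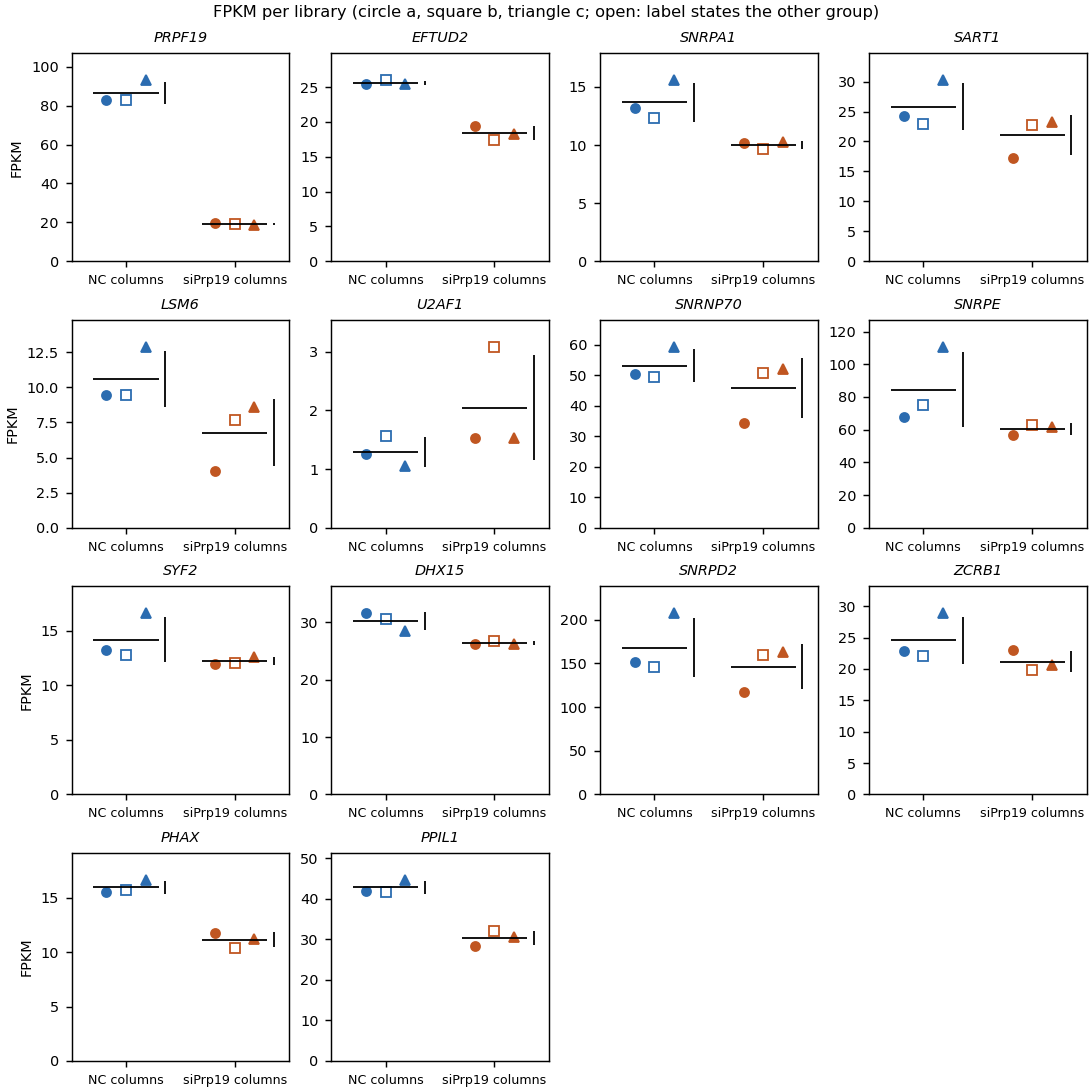
FPKM per library of PRPF19 and of the 13 genes named by rule (linear axes from 0). Circles, squares and triangles are the columns a, b and c, open symbols the 2 libraries whose label states the other group, lines the mean and side bars the SD (n = 3). PRPF19, EFTUD2, SNRPA1, LSM6, SNRPE, SYF2, DHX15, PHAX and PPIL1 do not overlap between the groups by column name. In SART1, SNRNP70 and SNRPD2, and also in LSM6 and SNRPE, single libraries stand apart.

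NCc and siPrp19a were most often the highest or lowest library for the 56 genes, as they were for all genes. NCc was the highest of the 6 libraries for 39 of the 56 genes (69.6%), against 28.6% of all genes. siPrp19a was the lowest for 22 (39.3% against 24.7%) and siPrp19b for 18 (32.1% against 13.2%). siPrp19a was also the highest for 9 (16.1% against 21.4%). The ratio of NCc to the mean of NCa and NCb had a median of 1.21 over the 56 genes and of 1.01 over all genes. It was above 1.2 in 29 of the 56 genes (51.8%, against 20.8% of all genes), up to 1.55 for *SNRPE*. By class the median was 1.40 for the Sm ring, 1.33 for the LSm ring and 0.977 for the helicases and second-step factors. Over the 56 genes, the log2 ratio had a Pearson r of -0.74 and a Spearman rho of -0.73 with the log2 length of the longest transcript (n = 56 genes of the same 3 libraries, a description across genes). Over all genes, the median ratio was 1.17 in the 3428 genes with the shortest transcripts and 0.862 in the 3427 with the longest. Long transcripts such as *PRPF8* (0.771) and *SNRNP200* (0.807) were lower in NCc.

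The ratio of siPrp19a to the mean of siPrp19b and siPrp19c had a median of 0.996 over the 56 genes. It was above 1.2 in 3 genes (5.36%, against 15.3% of all genes). It was under 0.8 in 8 genes (14.3%, against 15.4% of all genes), which were *LSM6* (0.497), *LSM7* (0.507), *SNRPF* (0.605), *U2AF1* (0.662), *SNRNP70* (0.667), *SNRPD2* (0.726), *PRPF31* (0.737) and *SART1* (0.753). These 8 genes come from 5 of the 9 classes. For *U2AF1* the low ratio came from siPrp19b, at 3.08 FPKM, as siPrp19a and siPrp19c were both at 1.53 FPKM. The Pearson r with log2 transcript length was 0.27 and that with GC content -0.18 (n = 56). The part of transcript length, mitochondrial reads or handling of single libraries in these ratios was not tested. Without both NCc and siPrp19a, 9 of the 56 genes passed, where 28% of all genes passed. These were *SF3B6*, which was higher in siPrp19, and *SF3B1*, *PRPF4*, *DHX15*, *EFTUD2*, *SF3A2*, *DHX8*, *SNRPA1* and *LSM3*, which were lower. That comparison sets the 2 close pairs of libraries against each other. Over the 56 genes, the chi-square per degree of freedom was 1.67 for NCa and NCb and 5.33 for siPrp19b and siPrp19c.

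**Figure D5:**
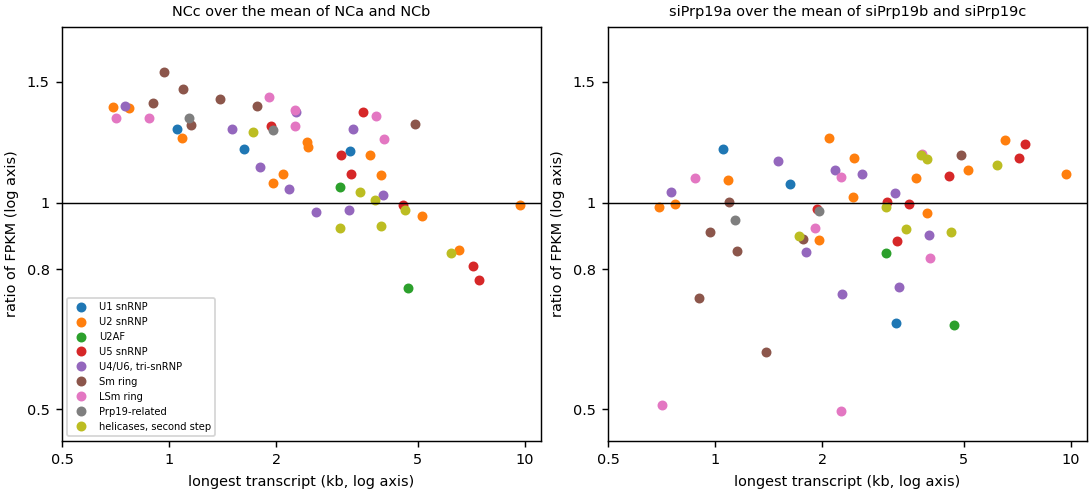
Ratio of FPKM in NCc to the mean of NCa and NCb (left) and in siPrp19a to the mean of siPrp19b and siPrp19c (right) for the 56 genes, against the length of the longest transcript (all axes logarithmic, colours by class). In NCc the ratio falls with length (Pearson r of the log2 values -0.74), and in siPrp19a LSM6 and LSM7 lie near 0.5.

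Other genes of the pathway were counted in the same way. Of the 6 NTC core genes 1 passed, *PRPF19*, which was 77.9% lower (log2 fold change -2.12 ± 0.074 SE, adjusted p-value 0.000215). The grouping by column name was itself chosen from these *PRPF19* values, so that p-value is no test of the knockdown. In the 4 libraries the adjusted p-value of *PRPF19* was 0.0266. Of 21 genes of snRNP assembly, 2 passed (9.52%, near the 7.94% of all genes), both lower, namely *PHAX* and *NCBP2*. *PHAX* (ENSG00000164902), the adaptor that carries snRNAs out of the nucleus, was at 15.5, 15.7 and 16.7 FPKM in the NC columns and at 11.8, 10.4 and 11.2 FPKM in the siPrp19 columns, without overlap. It differed by -0.48 ± 0.071 on the log2 scale (SE, adjusted p-value 0.0113). *NCBP2*, a subunit of the cap-binding complex, was at 27.3, 27.6 and 30.7 FPKM and at 21.7, 20.9 and 21.4 FPKM, with an adjusted p-value of 0.0199. *SMN1* had the widest difference of the list, from 26.0, 18.8 and 9.18 FPKM in NCa, NCb and NCc to 7.64, 7.20 and 8.12 FPKM in the siPrp19 columns, but it did not pass, and its reads may have been split with or lost to its near-identical copy *SMN2*.

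Of 36 other U1, U2 and B/Bact factors, 3 passed (8.33%, near the 7.94% of all genes), all lower: *PPIL1*, *MFAP1* and *LUC7L2*. *PPIL1* (ENSG00000137168), a prolyl isomerase of the activated spliceosome, was at 42.0, 41.8 and 44.7 FPKM in the NC columns and at 28.4, 32.1 and 30.5 FPKM in the siPrp19 columns. It differed by -0.49 ± 0.073 on the log2 scale (SE, adjusted p-value 0.0126). *MFAP1*, a protein of the B complex, was at 26.2, 28 and 29.9 FPKM in the NC columns and at 19.1, 15.8 and 19.5 FPKM in the siPrp19 columns, and *LUC7L2*, a U1-associated protein, at 9.81, 8.78 and 10.2 FPKM and 5.67, 6.75 and 6.82 FPKM. The groups did not overlap in any of these 3 genes, and 18.1% of all genes were lower without overlap.

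Of the 9 proteins of the minor spliceosome, 0 passed. The smallest p-value was that of *ZCRB1* (ENSG00000139168), a protein of the U11/U12 snRNP, at 22.8, 22.0 and 28.9 FPKM in the NC columns and 23.0, 19.8 and 20.7 FPKM in the siPrp19 columns, which overlapped. Its adjusted p-value was 0.350. In the 4 libraries, *PRPF19* alone passed among the genes of these 4 lists, and as labelled 0 passed. In two-sided exact permutation tests of the 14 genes named by rule as labelled, the smallest p-value was 0.2, for *PPIL1*, and adjusted p-values were 0.7 or above. With 3 against 3 libraries, 0.1 is the smallest p-value that can be reached.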

How the data were processed

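RNA-seq was measured in 6 libraries of SK-N-AS cells, 3 labelled NC and 3 labelled siPrp19. The authors deposited 1 FPKM value per gene and library for 58735 genes. Per the submitters' processing notes, HISAT2 2.0.5, featureCounts 1.5.0-p3 and hg38 were used. Which annotation and strand setting were used is not given in the sources used here. The study's own test needs counts. FPKM values are not counts, so log2(FPKM + 1) was fitted here with limma 3.58.1 in R 4.3.3 (mean-variance trend, Benjamini-Hochberg adjustment over 13718 genes with a mean of at least 1 FPKM, threshold 0.05). Fold changes on this scale understate those of weakly expressed genes. P-values measure the spread between these libraries, which may be partly technical.

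Gene identifiers were matched to GENCODE 29, and a table of current names gave symbols for 58207 of 58735. Multiplied by the exon length in GENCODE 29, 100% of the values above 0 were whole reads (tolerance 0.01 reads), and voom was run on these as an alternative. Reads do not mark molecules, so depth bounds counting error only.

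Coordinates come from GENCODE 29 (GRCh38). Exon overlap and shared 50-base words were computed from its transcripts. Promoter windows come from a RefSeq table.

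The 56 genes, the other lists and the use of column names were chosen with earlier results of these data known, so counts over lists are descriptions without tests. The genes named by rule were *PRPF19*, the members past the threshold by column name, the member with the largest absolute change in each class without one, the members with the highest and lowest mean FPKM, and the gene with the smallest p-value of each other list.

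Alternatives included a pseudocount of 0.1, all genes unfiltered, quantile normalization, no trend, voom, a replicate block, an adjusted p-value of 0.1, and leaving out each library. Leaving out NCc and siPrp19a together, and correcting each library for GC content and transcript length with splines of 4 degrees of freedom, were added after seeing the data. Of the tested genes, 9 had no transcript sequence and were left uncorrected. The fits were tested on simulated data. Python 3.11.15 with pandas 2.3.3, numpy 2.4.6 and scipy 1.17.1 was used.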

Additional observations from a re-analysis of the deposited data

How the results depend on the processing

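By column name, 1089 genes passed the threshold (353 higher, 736 lower). The count was 1087 under quantile normalization (501 higher, 586 lower), 1370 with voom (747 higher, 623 lower), 512 with no filter, 1854 at an adjusted p-value of 0.1 and 1981 with the GC and length correction, and from 253 to 1354 without single libraries. It was 3846 without both NCc and siPrp19a and 2 in the 4 libraries. The number of the 56 genes past the threshold was 2. It was 1 with no filter, with no trend, under quantile normalization and with voom, 5 with the GC and length correction (*DHX38*, *EFTUD2*, *SF3A2*, *SNRPA1* and *U2AF2*, where 14.4% of all genes passed), 9 without both NCc and siPrp19a, 0 in the 4 libraries, and from 0 to 2 without single libraries. Their median log2 fold change moved to -0.013 under quantile normalization by column name and to -0.015 in the 4 libraries, where it ranged from -0.30 to -0.025 without single libraries. Without both NCc and siPrp19a, *SNRNP70* turned to 0.042 and *SNRPD2* to 0.12, and *DHX15* passed (-0.22). Without single libraries, by column name, *SNRNP70* ranged from -0.33 to -0.039 and *SNRPD2* from -0.29 to -0.036. As labelled, *EFTUD2* ranged from -0.27 to 0.0041 and turned without siPrp19c.

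In the 4 libraries, 2 genes passed, 0 with no filter and 266 with voom. Leaving out a library there left 1 against 2, whose fit is a value with no test. As labelled, 0 genes passed under the alternatives run.

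The letters of the column names did not pair the libraries: deviations from the group means correlated at 0.13 for a, -0.05 for b and 0.20 for c. With the letter as a replicate block, 928 genes and 2 of the 56 passed, and 1501 and 2 with the GC and length correction added. By labelled number the correlations were 0.39, -0.17 and 0.32, and 0 genes passed with that block. Of 505 values under alternatives, 454 kept their direction and side of the threshold. *PHAX* and *PPIL1* passed by column name, but missed the threshold without some single libraries of the close pairs, with log2 fold changes from -0.52 to -0.44 and from -0.53 to -0.44 over the 6 libraries left out.

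At this depth, 184 or more reads lay behind every value of the 56 genes.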
